A study of Mus musculus with 6 samples.

Results

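The integrin genes of regulatory T cells (Treg) are described here across 6 RNA libraries. The set holds 10 genes, chosen by mouse symbol and each found once among the 37991 genes of the count table. They are the alpha subunit genes Itgae, Itgav, Itga4, Itga6 and Itgal and the beta subunit genes Itgb1, Itgb2, Itgb3, Itgb7 and Itgb8. All 10 passed the filter on low counts. Per the labels, Treg were sorted as YFP+ cells from CD4+ T cells of mouse spleen, and 3 libraries came from wild type, KAP1 sufficient cells and 3 from KAP1 deficient cells. The labels do not name the allele, the Cre driver or the age of the mice, or say whether each library stands for its own animal. The p-values below therefore measure only how these samples spread, which may be technical. The strain reads C57BL/6 for 4 libraries, C57BL/7 for the library labelled deficient replicate 2 and C57BL/8 for the library labelled deficient replicate 3. KAP1 is the protein product of Trim28, recruited to DNA by KRAB zinc finger proteins to repress transcription.

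Integrins are cell surface receptors made of 1 alpha and 1 beta subunit. They hold T cells to matrix and to other cells, and inside-out signals through talin and kindlin switch them from a bent, inactive form to an extended, active one. In T cells Itgal pairs with Itgb2 (LFA-1, which binds ICAM proteins). Itga4 pairs with Itgb1 (VLA-4, which binds VCAM-1 and fibronectin) or with Itgb7 (the gut homing receptor for MAdCAM-1). Itgae pairs with Itgb7 and binds E-cadherin. Itga6 pairs with Itgb1 and binds laminin. Itgav pairs with Itgb1, Itgb3 or Itgb8, and with Itgb8 it frees active TGF-beta from its latent form on Treg.

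Trim28 went against the label in 2 libraries, and each result on the integrin genes is therefore given under both groupings. Counts of Trim28 were 2462, 2483 and 218 in the libraries labelled sufficient replicates 1, 2 and 3, and 232, 185 and 2544 in those labelled deficient replicates 1, 2 and 3. By measured Trim28 the high libraries are sufficient 1, sufficient 2 and deficient 3, and the low libraries are sufficient 3, deficient 1 and deficient 2. These groups rest on a measured transcript and are not the groups the labels give, so the comparison is of libraries with low against high Trim28 and not of genotypes. Library totals ran from 9954344 to 10994745 counts, and a count of 0 allows up to 0.273 to 0.301 CPM (counts scaled to a common library total), the level of 3 counts. The 10 integrin genes together made up 0.469% to 0.511% of all counts, and the lowest count of any of them was 517, in Itgb8, where counting error alone is 4.4%. That limit covers counting error only. In these bulk samples, fewer cells of a type and less RNA per cell cannot be told apart.

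Under the labels no integrin gene passed the test (edgeR quasi-likelihood test, Benjamini-Hochberg adjusted p under 0.05 over 12158 genes), where 0.0165% of all genes tested did. By unadjusted p under 0.05 there was 1 of 10, Itgb8, against 7.76% of all genes tested, and DESeq2 and limma-voom also called 0 of 10. By Trim28 level 4 of 10 passed, against 8.23% of all genes tested. Itgb3, Itgb1 and Itga4 were lower in the Trim28-low libraries (3 of 10, against 3.61% of all genes) and Itga6 was higher (1 of 10, against 4.61%). Itgae, Itgal, Itgav, Itgb2, Itgb7 and Itgb8 did not pass. With the label added to the edgeR fit by Trim28 level the same 4 passed, against 7.59% of all genes tested, and with Trim28 level added to the fit by label 0 of 10 did, against 0.0329%. By Trim28 level without a covariate, the median log2 fold change of the 10 genes was 0.01, against 0.00 for all genes tested. By label without a covariate it was -0.01, against -0.004. In the 4 libraries left without sufficient 3 and deficient 3, label and Trim28 level coincide, and 5 of 10 passed, the same 4 and Itgb8, against 17.4% of all genes tested. The plot of CPM by library shows all 10 genes.

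**Figure D1:**
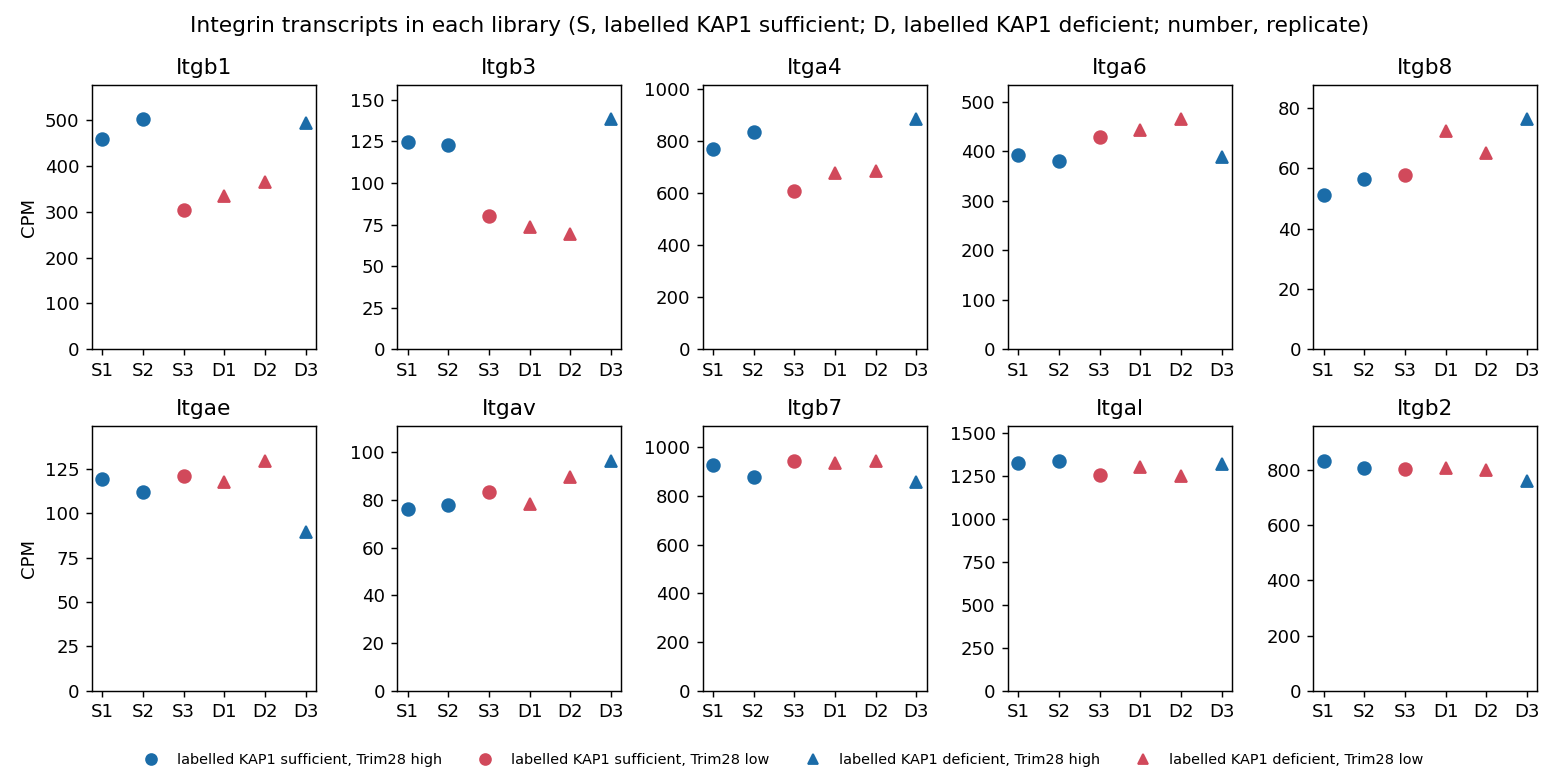
CPM of the 10 integrin genes (vertical axis, from 0) in each of the 6 libraries (horizontal axis; S, labelled sufficient; D, labelled deficient; number, replicate), 1 point per library, coloured by Trim28 level and shaped by label. Itgb1, Itgb3 and Itga4 are lower and Itga6 is higher in the 3 Trim28-low libraries (red), while Itgb8 is higher in the 3 libraries labelled deficient (triangles).

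The beta 3 subunit gene Itgb3 (ENSMUSG00000020689, chromosome 11, 104608000 to 104670476, mm10), whose protein binds vitronectin and fibronectin with alpha v, had the greatest change of the 10 by Trim28 level. It stood at 125, 123 and 138 CPM in the Trim28-high libraries sufficient 1, sufficient 2 and deficient 3. It stood at 80.3, 73.4 and 69.3 CPM in the Trim28-low libraries sufficient 3, deficient 1 and deficient 2. The groups by Trim28 level did not overlap, and the library labelled deficient replicate 3 held the highest value of all. Means were 129 ± 8.43 and 74.3 ± 5.54 CPM (SD, n = 3 each), and the log2 fold change of Itgb3, low minus high, was -0.78 (SE 0.07, adjusted p in edgeR = 2.31e-06). Under the labels the groups overlapped, at 109 ± 25.1 CPM in sufficient and 93.7 ± 38.7 CPM in deficient libraries, with a log2 fold change of -0.23 ± 0.36 (adjusted p in edgeR = 0.885). With label and Trim28 level in the same edgeR fit, the Trim28 term was -0.78 ± 0.07 and the label term 0.00 ± 0.07. In platelets beta 3 pairs with alpha IIb. Of 8 platelet and megakaryocyte markers, Pf4, Ppbp, Gp9, Gp1bb and Treml1 had 0 counts in all 6 libraries, and Itga2b had 25 to 46 counts, with ranges of the markers' summed level of 2.85 to 3.96 CPM in Trim28-high and 2.61 to 4.56 CPM in Trim28-low libraries.

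Itgb1 (ENSMUSG00000025809, chromosome 8, 128685654 to 128733200), the beta subunit shared by VLA-4, the laminin receptors and other matrix receptors, was lower in all 3 Trim28-low libraries. It stood at 458, 501 and 494 CPM in sufficient 1, sufficient 2 and deficient 3, and at 303, 333 and 364 CPM in sufficient 3, deficient 1 and deficient 2. The groups did not overlap, and the lowest value was that of the library labelled sufficient replicate 3. Itgb1 fell by 0.53 ± 0.07 in log2 units (adjusted p in edgeR = 0.000112), from a mean of 484 ± 22.8 to 333 ± 30.1 CPM (SD, n = 3 each). Under the labels its log2 fold change was -0.09 ± 0.24 (edgeR adjusted p = 0.936), at 421 ± 104 against 397 ± 85.2 CPM.

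Itga4 (ENSMUSG00000027009, chromosome 2, 79255426 to 79333123), the alpha 4 subunit of VLA-4 and of the gut homing receptor, was also lower in all 3 Trim28-low libraries. Its values were 771, 835 and 884 CPM in sufficient 1, sufficient 2 and deficient 3, and 609, 676 and 686 CPM in sufficient 3, deficient 1 and deficient 2. The groups by Trim28 level did not overlap, and Itga4 fell by 0.33 ± 0.06 in log2 units (adjusted p in edgeR = 0.00442). By label, the log2 fold change was 0.02 ± 0.14 (edgeR adjusted p = 0.983), at 739 ± 116 in sufficient and 748 ± 117 CPM in deficient libraries. This value changed direction and passed, at -0.23 ± 0.05 (edgeR adjusted p = 0.00694), without both libraries numbered 3, where 17.4% of all genes tested passed. Exons of the antisense gene Cerkl overlap those of Itga4, and without strand information their reads cannot be told apart. Cerkl had 214 counts over all 6 libraries.

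Promoters are shown for Itga4 and Itgb1 because these VLA-4 subunit genes fell together and RefSeq's table (GRCm38.p6, the assembly of mm10) holds both. The table matched 5 of the 10 genes, and each entry spans 250 bases before to 50 after a transcription start. Capitals mark matches on either strand to 6 motifs: GC box GGGCGG, RUNX TGTGGT, ETS CCGGAA, AP-1 TGANTCA, forkhead GTAAACA and SMAD CAGACA.
Itga4 promoter (chr2:79255176-79255475, plus strand): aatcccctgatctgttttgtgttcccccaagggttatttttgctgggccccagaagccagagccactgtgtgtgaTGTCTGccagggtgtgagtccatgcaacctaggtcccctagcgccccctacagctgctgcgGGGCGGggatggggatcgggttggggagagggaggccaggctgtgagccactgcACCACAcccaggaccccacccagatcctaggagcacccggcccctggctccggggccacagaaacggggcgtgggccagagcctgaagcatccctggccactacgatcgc
Itgb1 promoter (chr8:128685404-128685703, plus strand): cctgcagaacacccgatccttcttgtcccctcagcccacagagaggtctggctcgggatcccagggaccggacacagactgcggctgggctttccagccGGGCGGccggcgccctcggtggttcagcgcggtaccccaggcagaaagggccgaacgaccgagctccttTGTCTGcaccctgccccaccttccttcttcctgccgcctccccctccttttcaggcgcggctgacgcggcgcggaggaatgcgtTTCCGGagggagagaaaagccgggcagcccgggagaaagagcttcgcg
Both windows held 1 GC box, found in 35.7% of all 32851 promoters, and 1 SMAD match, found in 21.0%. The Itga4 window also held 1 RUNX match, found in 16.8% of promoters, and the Itgb1 window 1 ETS match, found in 14.9%. Neither held an AP-1 or forkhead match, found in 7.81% and 3.65% of promoters. No matches overlapped. The GC content was 64.3% for Itga4 and 67.3% for Itgb1, against a median of 52.7%. Windows of genes that did not pass by Trim28 level over all 6 libraries shared some of these traits. Itgav held 1 GC box at 67.3% GC, Itgb8 held 1 SMAD match at 60.7% and Itgb7 held no match at 56.3%. A match is a description of these letters and not a site of binding.

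Itga6 (ENSMUSG00000027111, chromosome 2, 71745616 to 71858416), the laminin-binding alpha 6 subunit, moved the other way. It stood at 393, 381 and 389 CPM in the Trim28-high libraries and at 428, 443 and 464 CPM in the Trim28-low ones. The groups did not overlap, and the rise was 0.21 ± 0.05 in log2 units (adjusted p in edgeR = 0.0251). The call on Itga6 was lost without the library labelled sufficient replicate 2 (edgeR adjusted p = 0.103), deficient replicate 1 (0.101) or deficient replicate 2 (0.127), at log2 fold changes of 0.20, 0.21 and 0.18. By label its log2 fold change was 0.11 ± 0.08 (edgeR adjusted p = 0.717). Itga6 and Itga4 encode alternative partners of Itgb1. By exon length, Itga4 made up 55.9%, 58.6% and 59.5% of the sum of Itga4 and Itga6 in the Trim28-high libraries and 47.9%, 49.6% and 48.8% in the Trim28-low ones, without overlap. By label these shares overlapped, at 54.1% ± 5.57 in sufficient and 52.6% ± 5.93 in deficient libraries (SD, n = 3 each). Which of the 2 genes made up the larger part depends on the length used. By the longest coding transcript, Itga6 averaged 96.6 and Itga4 76.1 CPM per kilobase over the 6 libraries.

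**Figure D2:**
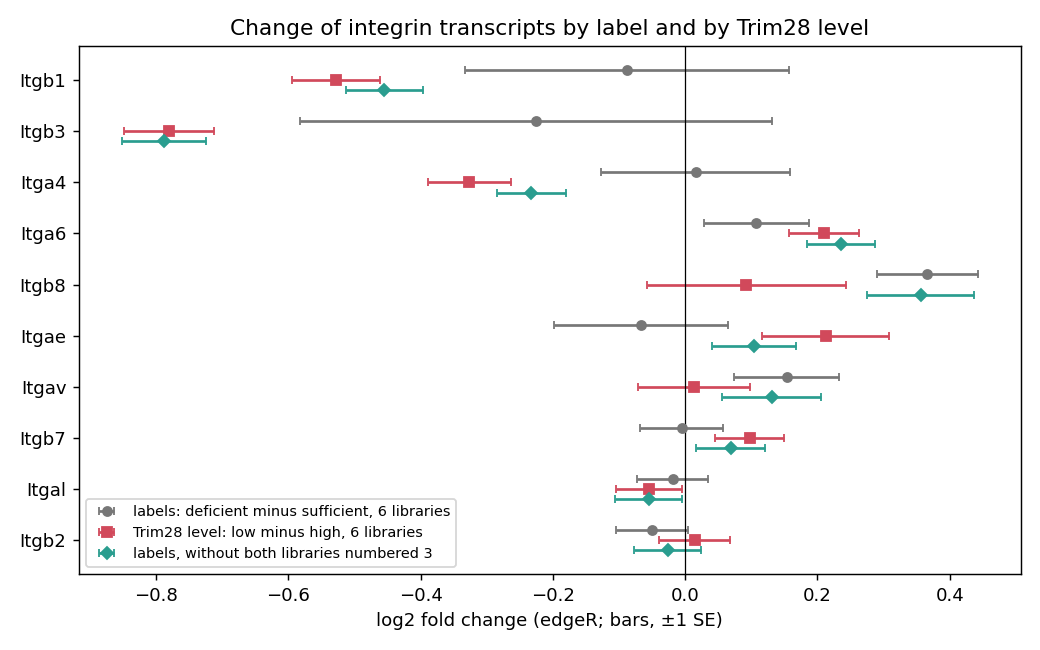
Log2 fold change of each integrin gene (edgeR; bars, 1 SE) by label in 6 libraries (grey), by Trim28 level in 6 libraries (red) and by label without both libraries numbered 3 (green). Itgb3, Itgb1 and Itga4 lie left of 0 and Itga6 right of 0 by Trim28 level, whereas Itgb8 lies at 0.37 by label and 0.09 by Trim28 level.

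Itgb8 (ENSMUSG00000025321, chromosome 12, 119158022 to 119238802), the partner of alpha v in activating latent TGF-beta, passed neither by label nor by Trim28 level over all 6 libraries. Its values were 51.2, 56.6 and 57.7 CPM in the libraries labelled sufficient replicates 1, 2 and 3 and 72.3, 65.0 and 76.2 CPM in those labelled deficient. It was the only 1 of the 10 genes whose labelled groups did not overlap, against 12.8% of all genes tested. Means were 55.1 ± 3.48 and 71.2 ± 5.70 CPM (SD, n = 3 each). The log2 fold change by label was 0.37 ± 0.08, higher in deficient libraries, with an unadjusted p of 0.000808 and an edgeR adjusted p of 0.632, so it did not pass over all genes. With Trim28 level in the same fit the label term was 0.37 ± 0.08 (edgeR adjusted p = 0.277). Without the library labelled sufficient replicate 3 it passed, at 0.40 (edgeR adjusted p = 0.0144), as it did without both libraries numbered 3, at 0.36 ± 0.08 (edgeR adjusted p = 0.00688). In these settings 807 of 12336 and 2114 of 12183 genes passed by label, against 2 of 12158 over all 6 libraries. By Trim28 level the values of Itgb8 overlapped, with a log2 fold change of 0.09 ± 0.15 (in edgeR, adjusted p = 0.773), and the library labelled deficient replicate 3, Trim28-high, held the highest level. Without that library Itgb8 passed by Trim28 level too, at 0.28 (adjusted p in edgeR = 0.029). There 2737 of 12307 genes passed, against 1000 of 12158 over all 6 libraries.

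Itgav (ENSMUSG00000027087, chromosome 2, 83724397 to 83806916), the alpha v subunit that pairs with Itgb8, Itgb3 and Itgb1, passed no test. It ran from 76.0 to 96.5 CPM, highest in the library labelled deficient replicate 3. Its log2 fold change was 0.15 ± 0.08 by label (edgeR adjusted p = 0.654) and 0.01 ± 0.08 by Trim28 level (edgeR adjusted p = 0.952). Among its 3 beta partners, the share of Itgb8 by exon length was 3.35%, 3.44% and 4.56% in the Trim28-high and 5.60%, 6.50% and 5.51% in the Trim28-low libraries. These shares did not overlap by Trim28 level, and the fall of Itgb1 and Itgb3 enters them. By label they overlapped, at 4.13% ± 1.27 in sufficient and 5.52% ± 0.97 in deficient libraries (SD, n = 3 each). The share of Itgb3 in the same sum overlapped, at 15.3%, 14.0% and 15.5% in the Trim28-high and 14.6%, 12.4% and 11.01% in the Trim28-low libraries. It overlapped by label too, at 14.6% ± 0.66 in sufficient and 13.0% ± 2.30 in deficient libraries (SD, n = 3 each).

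The mucosal integrin genes Itgae and Itgb7 did not pass under either grouping. Itgae (ENSMUSG00000005947, chromosome 11, 73090583 to 73147446), which encodes CD103, stood at 119, 112 and 89.4 CPM in the Trim28-high libraries sufficient 1, sufficient 2 and deficient 3. It stood at 121, 118 and 130 CPM in the Trim28-low ones. The 2 sets overlapped, and the library labelled deficient replicate 3 was the lowest of the 6. The log2 fold change of Itgae was 0.21 ± 0.10 by Trim28 level (edgeR adjusted p = 0.22) and -0.07 ± 0.13 by label (edgeR adjusted p = 0.906). Of 16 other settings of the Trim28-level comparison, 1 called it, the one without a filter on low counts (0.21, edgeR adjusted p = 0.0167). Itgb7 (ENSMUSG00000001281, chromosome 15, 102215995 to 102231944) ranged from 858 to 946 CPM. Its log2 fold change was 0.10 ± 0.05 by Trim28 level (edgeR adjusted p = 0.3), although the groups did not overlap, and -0.01 ± 0.06 by label (edgeR adjusted p = 0.986).

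Itga4 can pair with either Itgb1 or Itgb7, and the balance of these 2 transcripts differed between the libraries. By exon length, Itgb1 made up 25.1%, 27.9% and 28.1% of the sum of Itgb1 and Itgb7 in the Trim28-high libraries sufficient 1, sufficient 2 and deficient 3. It made up 17.9%, 19.4% and 20.7% in the Trim28-low libraries sufficient 3, deficient 1 and deficient 2. The shares did not overlap by Trim28 level and overlapped by label, where they averaged 23.7% ± 5.18 in sufficient and 22.7% ± 4.67 in deficient libraries (SD, n = 3 each). These pairs of genes were chosen after the values were seen, and their shares were not tested.

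The LFA-1 genes did not pass under either grouping. Itgal (ENSMUSG00000030830, chromosome 7, 127296260 to 127335138), the alpha L subunit, ran from 1252 to 1341 CPM. Its log2 fold change was -0.06 ± 0.05 by Trim28 level (edgeR adjusted p = 0.561) and -0.02 ± 0.05 by label (edgeR adjusted p = 0.936). Itgb2 (ENSMUSG00000000290, chromosome 10, 77530252 to 77565708), the beta 2 subunit of leukocyte integrins, ran from 760.0 to 835 CPM, with 0.01 ± 0.05 and -0.05 ± 0.05 (edgeR adjusted p = 0.914 and 0.813). In all, the CPM ranges of 6 of the 10 genes did not overlap by Trim28 level, against 26.4% of all genes tested, and these 6 include Itgb7 and Itgal, which did not pass.

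Levels per length were compared as CPM per kilobase of annotated exon, averaged over the 6 libraries. Itgb7 was highest at 330.3 ± 13.6, followed by Itgb2 at 263 ± 7.96, Itgal at 198 ± 5.74 and Itgb1 at 100.1 ± 21.1 CPM per kilobase (SD, n = 6). The ranges of Itga4 (53.2 ± 7.48) and Itga6 (46.1 ± 3.75) overlapped, as did those of Itgae (mean 25.1, range 19.5 to 28.3) and Itgb3 (17.2 ± 5.15). Itgav at 7.78 ± 0.75 and Itgb8 at 5.71 ± 0.88 were lowest, and every other pair of neighbours was apart in all 6 libraries. The order of Itga4 and Itga6 was reversed when the longest coding transcript was used as the length (76.1 and 96.6 CPM per kilobase), and the other 8 genes kept their rank. In the Trim28-high library deficient 3, Itgb3 at 23.4 CPM per kilobase lay above Itgae at 19.5, and in the other 5 libraries Itgae lay above Itgb3.

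**Figure D3:**
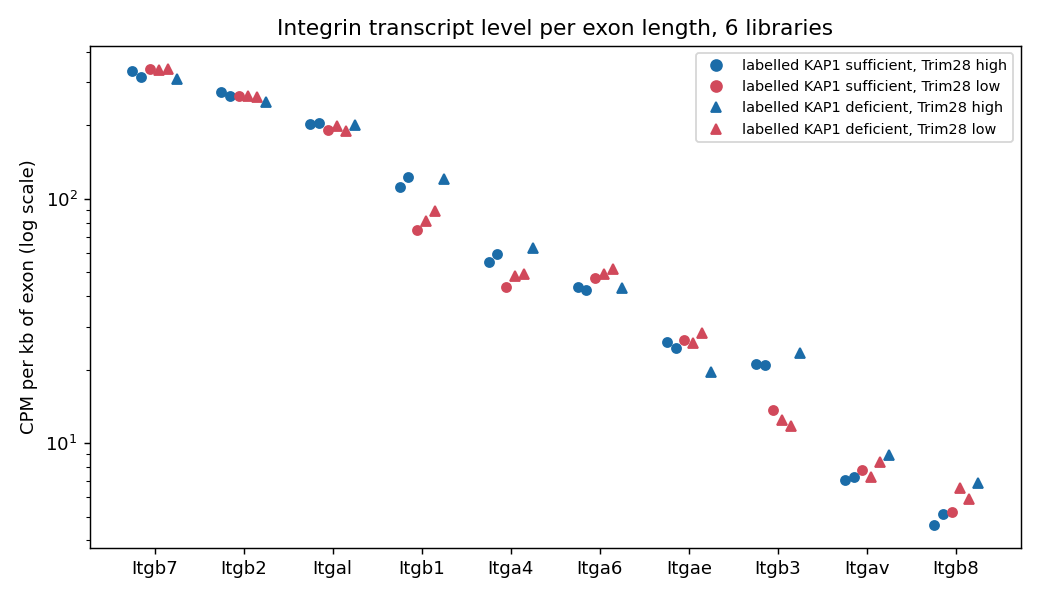
CPM per kilobase of annotated exon (log axis) of the 10 integrin genes in 6 libraries, ordered by their mean, with 1 point per library coloured by Trim28 level and shaped by label. Levels run from 330.3 for Itgb7 to 5.71 for Itgb8, and only Itga4 with Itga6, and Itgae with Itgb3, overlap their lower neighbour.

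The other integrin subunit genes were low. Of 16, 8 passed the filter, with mean levels of 1.71 CPM (Itgam) to 15.4 CPM (Itga5). None of the 8 passed the test by label or by Trim28 level (edgeR), against 0.0165% and 8.23% of all genes tested. At such shares 8 genes are too few for 0 calls to set them apart. Unadjusted p was under 0.05 for 0 of them by label, against 7.76% of all genes tested, and for 1 by Trim28 level. That 1 was Itga9, at 5.29 ± 0.58 CPM in Trim28-high and 3.21 ± 0.88 CPM in Trim28-low libraries (SD, n = 3 each), with a log2 fold change of -0.71 ± 0.22 (adjusted p in edgeR = 0.0621). The value for Itga3, next in order, was 0.27 ± 0.14 (edgeR adjusted p = 0.261). Itga8, Itgax and Itgb6 had 0 counts in every library, and the remaining 5 had at most 12.

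Of 32 genes that activate integrins or link them to the cytoskeleton, 24 were tested. By Trim28 level 1 rose and 0 fell, against 4.61% and 3.61% of all genes tested, with a median log2 fold change of 0.05. Ptk2, the focal adhesion kinase, rose from 7.15 ± 1.46 to 10.6 ± 1.55 CPM, by 0.58 ± 0.17 in log2 units (adjusted p in edgeR = 0.0456). Its call was lost in 10 of 16 other settings, among them DESeq2 (adjusted p = 0.106), and without the library labelled sufficient replicate 1 or 3 or deficient replicate 1 or 2 (edgeR adjusted p = 0.172, 0.207, 0.0509 and 0.116). Talin 1 (Tln1), which binds beta tails, had a log2 fold change of 0.05 ± 0.05, kindlin-3 (Fermt3) of -0.01 ± 0.06 and the RIAM gene Apbb1ip of -0.01 ± 0.05.

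Of 17 genes for integrin ligands and counter-receptors only 5 were tested, and 3 of these rose with low Trim28 and 0 fell, against 4.61% and 3.61% of all genes tested. Lama5, a laminin chain and hence part of a ligand of alpha 6 beta 1, stood at 10.8, 12.8 and 13.1 CPM in the Trim28-high and 42.9, 35.5 and 40.7 CPM in the Trim28-low libraries. The groups were far apart, a rise of 1.71 ± 0.10 in log2 units (adjusted p in edgeR = 4.96e-08). Cdh1, which encodes E-cadherin, the ligand of alpha E beta 7, had 2, 0 and 7 counts in the Trim28-high and 12, 16 and 23 in the Trim28-low libraries. Its log2 fold change was 2.51 ± 0.58 (edgeR adjusted p = 0.0168). Cdh1 passed the filter on low counts only through its counts in the Trim28-low libraries. The 3 of 5 therefore includes a gene that could enter the test only by being higher there. The Cdh1 call was lost without sufficient replicate 1 or 2 or deficient replicate 1 or 2 (edgeR adjusted p = 0.0767, 0.0506, 0.0548 and 0.088). Icam1, a ligand of LFA-1, rose by 0.29 ± 0.07 in log2 units (adjusted p in edgeR = 0.0178), from 69.9 ± 5.86 to 84.8 ± 0.42 CPM. The Icam1 call was lost without sufficient replicate 3 or deficient replicate 1 or 2 (edgeR adjusted p = 0.0796, 0.0677 and 0.0636).

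Among 11 genes for latent TGF-beta and its presentation, 6 were tested, 2 rose with low Trim28 and 0 fell, against 4.61% and 3.61% of all genes tested. Furin, the protease that cuts pro-TGF-beta and pro-integrins, rose by 0.42 ± 0.06 in log2 units (adjusted p in edgeR = 0.000393), from 125 ± 6.37 to 167 ± 7.22 CPM. Tgfb3, a latent TGF-beta ligand, had 11, 16 and 10 counts in Trim28-high and 34, 25 and 42 in Trim28-low libraries, a rise of 1.49 ± 0.30 (edgeR adjusted p = 0.00632). Tgfb1, the main form in T cells, had a log2 fold change of -0.13 ± 0.09 (adjusted p in edgeR = 0.396). Lrrc32, which encodes GARP, the anchor that holds latent TGF-beta on Treg, had 0.09 ± 0.09 (edgeR adjusted p = 0.625). The 3 libraries labelled deficient held less Lrrc32 than the 3 labelled sufficient, 435 ± 39.8 and 497 ± 22.6 CPM (SD, n = 3 each), which did not pass by label (-0.19 ± 0.08, edgeR adjusted p = 0.632). Labelled groups did not overlap for 12.8% of all genes tested.

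Other adhesion and homing receptors numbered 12, all tested, of which 2 fell and 1 rose by Trim28 level, against 3.61% and 4.61% of all genes tested. Klrg1, a lectin-like receptor that binds cadherins, stood at 11.8, 9.14 and 7.82 CPM in Trim28-high and 1.16, 0.298 and 0.904 CPM in Trim28-low libraries, a log2 fold change of -3.57 ± 0.31 (adjusted p in edgeR = 2.48e-06). Klrg1 passed the filter on low counts only through its counts in the Trim28-high libraries. The 2 that fell therefore include a gene that could enter the test only by being higher there. The gut homing receptor gene Gpr15 fell by 0.99 ± 0.18 in log2 units (adjusted p in edgeR = 0.00263). Spn, which encodes CD43, rose by 0.33 ± 0.06 (edgeR adjusted p = 0.00393). By label no gene of these 4 lists passed (edgeR), against 0.0165% of all genes tested. Unadjusted p by label was under 0.05 for 3 of the 24 activation genes and 0 of the 5 ligand genes. It was under 0.05 for 1 of the 6 latent TGF-beta genes and 0 of the 12 homing genes, against 7.76% of all genes tested.

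**Figure D4:**
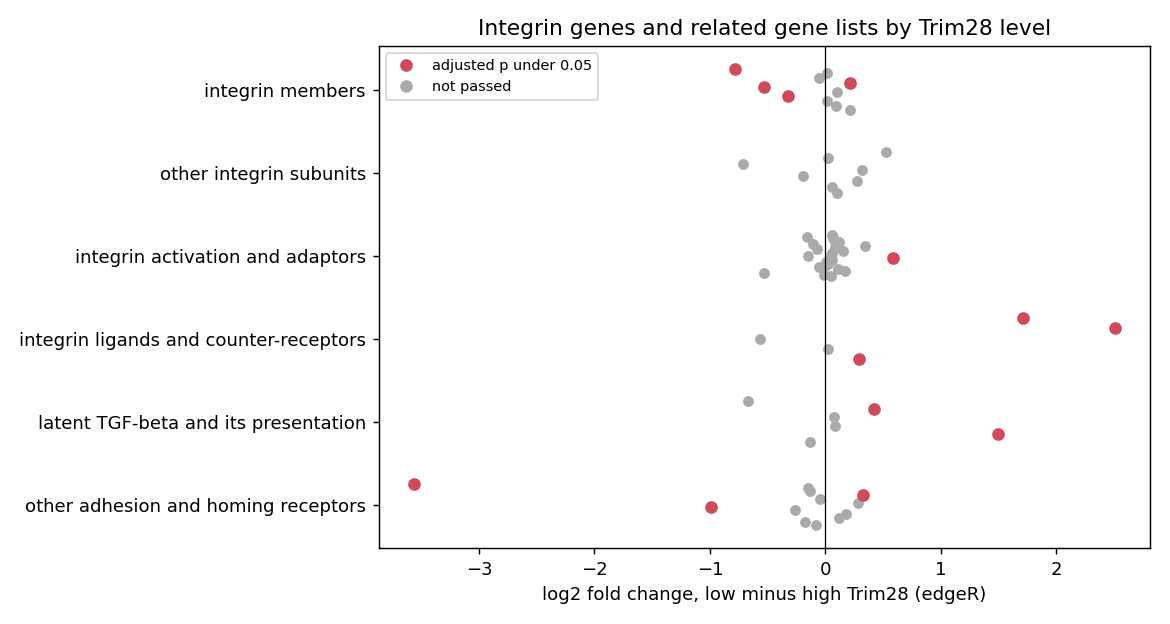
Log2 fold change by Trim28 level (horizontal axis, low minus high, edgeR) of each tested gene in 6 lists (rows), with red points for an adjusted p under 0.05 and grey points for the others. The 10 integrin genes (top row) span -0.78 to 0.21, and the points farthest from 0 are Klrg1 at -3.57 and Cdh1 at 2.51.

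The 3 genes whose centred log2 CPM followed Itgb1 most closely over the 6 libraries, among 8944 genes at a mean of at least 10 CPM, were Myo1e, Cmtm3 and S100a11. Their mean absolute differences from Itgb1 were 0.05, 0.05 and 0.06 in log2 CPM. For Itgb8 they were Zdhhc21, Acad8 and Nsun3, at 0.05 each. Likeness was measured in the same libraries that the comparisons use.

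The defining Treg gene Foxp3 was high in every library, at 621 to 747 CPM in those labelled sufficient and 596 to 614 CPM in those labelled deficient. These labelled groups did not overlap, against 12.8% of all genes tested. The log2 fold change of Foxp3 was -0.18 ± 0.07 by label (edgeR adjusted p = 0.632) and -0.16 ± 0.07 by Trim28 level (edgeR adjusted p = 0.193). Foxp3 passed in the 4 libraries without those numbered 3, at -0.25 ± 0.05 (edgeR adjusted p = 0.00509), against 17.4% of all genes tested. The summed level of 7 Treg genes was 4485 to 4549 CPM in Trim28-high and 4283 to 4423 CPM in Trim28-low libraries, without overlap. The 7 genes did not move together, and none passed by Trim28 level. Cd4 was lower in the Trim28-low libraries without overlap (means of 944 and 855 CPM in high and low). Il2ra (905 and 950 CPM) and Tnfrsf18 (180 and 195 CPM) were higher without overlap. Foxp3, Ctla4, Ikzf2 and Cd3e overlapped. Of all genes tested, 26.4% did not overlap by Trim28 level. Marker genes of other cells were low, and 3 of their lists differed in range by Trim28 level. The summed level was 14.2 to 15.9 CPM in Trim28-high and 9.51 to 12.1 CPM in Trim28-low libraries for 6 B cell genes, 4.62 to 7.03 and 9.999 to 11.9 CPM for 4 NK cell genes, and 1.28 to 1.58 and 0.595 to 0.804 CPM for 6 stromal or endothelial genes. Ncr1 and Klre1 of the NK list and Kdr and Col3a1 of the stromal list had 0 counts in all libraries. On the log2 scale Igkc fell by 2.24 with low Trim28 (edgeR adjusted p = 0.00747). Igkc passed the filter on low counts only through its counts in the Trim28-high libraries and could enter the test only by being higher there. Klrb1c rose by 1.97 on the log2 scale with low Trim28 (edgeR adjusted p = 4.08e-06). Eomes, the other NK gene with counts, went the opposite way, at 2.06 to 4.26 CPM in Trim28-high and 1.09 to 1.81 CPM in Trim28-low libraries, and did not pass (log2 fold change -1.07 ± 0.33, edgeR adjusted p = 0.0593), so the higher NK sum comes from Klrb1c. The 7 myeloid and 2 CD8 T cell genes overlapped between the levels. Their part in the integrin results was not tested.

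The authors' deposited table holds all 10 genes, and 829 of its 12072 genes with an adjusted p, 6.87%, have one under 0.05. Its header does not name the direction of its fold changes or the libraries that entered. Trim28 has a log2 fold change of 3.11 in the authors' deposited table, so positive values there go with higher Trim28, against -0.90 ± 1.46 by label here (deficient minus sufficient, adjusted p in edgeR = 0.889). Log2 fold changes in the authors' deposited table were 0.70 for Itgb3 (adjusted p = 3.05e-18), 0.51 for Itgb1 (3.05e-13), 0.31 for Itga4 (1.55e-05) and -0.20 for Itga6 (0.00553). These are the same 4 genes that passed by Trim28 level here, and the table is no independent evidence, since it belongs to the same series. Adjusted p-values of the other 6 genes ran from 0.294 to 0.995 in the authors' deposited table. For Itgb8 the authors' deposited table gives 0.16 (adjusted p = 0.52), that is, higher with higher Trim28. The value for Itgb8 here, 0.09 ± 0.15 low minus high (edgeR adjusted p = 0.773), lies in the opposite direction, and neither passed. Its mean level in the authors' deposited table was 243, 37.3% of its mean of 650.2 in the count table, against 96.6% to 103% for the other 9 genes.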

How the data were processed

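RNA from sorted splenic Treg was sequenced, per the labels. The submitters' processing notes name TopHat2 2.1.1, HTSeq 0.7.2, DESeq2 and mm10, with no role given, and annotation and strandedness of counting were not given in the sources used here. The authors deposited raw counts per Ensembl gene, and a table of their own comparison. The deposited columns are, per the file headers, a mean signal per gene, log2 fold changes with errors, a score for the test, and p-values. Symbols matched 32919 of 37991 genes, and rows without one held 0.603% of counts. Positions and exon lengths are from GENCODE M21.

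The test on counts was that of edgeR 4.0.16 under R 4.3.3 (quasi-likelihood, robust, TMM, filterByExpr, Benjamini-Hochberg at 0.05) over 12158 genes, by label and by Trim28 level, divided at the log midpoint of its CPM. Alternatives were RLE and upper-quartile scaling, no low-count filter, a mean of at least 5 CPM, DESeq2 1.42.0, limma-voom (3.58.1), a non-robust fit, a replicate block, the other grouping as covariate, and leaving out libraries. The fits were tested on simulated data. Library pairs differed by at least 2.43 chi-square per degree of freedom, above sampling noise. Pairs of Trim28-low libraries differed by 2.43 to 3.10, and sufficient 1 and sufficient 2 by 2.81. Deficient 3 differed from these 2 Trim28-high libraries by 7.22 and 7.64, and from the Trim28-low ones by 8.49 to 8.65. The Trim28-high libraries were thus less alike than the Trim28-low ones. Totals of 9954344 to 10994745 counts put 3 counts at 0.273 to 0.301 CPM.

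The genes, lists and tests were chosen with earlier results of these data known. Named were the 10 integrin genes, Trim28, up to 4 called genes per list by smallest adjusted p by Trim28 level (or 2 where none was called), and the 3 genes closest in profile to Itgb1 and to Itgb8. Tln1, Fermt3, Apbb1ip, Tgfb1, Lrrc32, Cerkl and the marker genes with values were named after their values were seen.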

Additional observations from a re-analysis of the deposited data

How the results depend on the processing

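By label, 0 of 10 integrin genes passed, 5 without both libraries numbered 3, 0 to 1 on leaving out single libraries (1, Itgb8, without sufficient replicate 3), and 0 in the other 9 settings. By Trim28 level, 4 passed, 3 to 5 over the 16 other settings, and Itgb1, Itgb3 and Itga4 passed in all 16. The label value of Itga4 was -0.23 without both libraries numbered 3. Genes called by label numbered 2, and 0 with a mean of at least 5 CPM, 6 with DESeq2, 1 with limma-voom, 1 with the non-robust fit, 0 with the replicate block, 4 with Trim28 level as covariate, 2114 without both libraries numbered 3, and 1 to 807 without single libraries, highest without sufficient replicate 3. Genes called by Trim28 level numbered 1000, and 1676 without a low-count filter, 2114 without both libraries numbered 3, and 556 to 2737 without single libraries, highest without deficient replicate 3. The cause was not tested. Where 1 group kept 1 or 2 libraries, the spread was pooled. The replicate block left 4 of 10 integrin genes by Trim28 level and 0 by label, and gave 1117 genes by Trim28 level. Same-numbered libraries had deviations from the Trim28-level means correlated at -0.04, 0.04 and 0.02, which do not show a pairing. Deviations from the label means were correlated at -0.36, -0.28 and -0.60. Each same-numbered pair holds 1 Trim28-high and 1 Trim28-low library, which enters these label values, so they cannot decide on a pairing. Depth limits genes under 0.273 to 0.301 CPM.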
